A study of Homo sapiens with 17 samples.

Results

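Retinoic acid acts through a small set of nuclear receptors, and the 8 genes described here encode them and a pair of their corepressors: the retinoic acid receptors RARA, RARB and RARG, the retinoid X receptors RXRA, RXRB and RXRG, and the corepressors NCOR1 and NRIP1. They were taken by symbol from both deposited expression tables, which share 60662 genes, and all 8 were found and passed the filter on low counts in every comparison. The cells are CHP-134, an established human neuroblastoma line that carries extra copies of MYCN and is very sensitive to retinoic acid. In culture there were 2 libraries per group: the solvent DMSO, and 2 µM of all-trans retinoic acid, or ATRA, over 1, 3 or 6 days. Luciferase-labelled CHP-134 cells were also grown beneath the skin of adult female athymic nude mice, and RNA came from 4 tumors of mice dosed orally with 25 mg/kg of 13-cis-retinoic acid, 2 doses per day (RA tumors), and from 5 tumors of mice labelled as untreated (control tumors), which the study's text also calls vehicle-treated. Athymic mice lack mature T cells, and every library derives from the same cell line. The culture time of the DMSO cells was not given in the sources used here, and many cells die during the ATRA course, so libraries at 6 days describe the cells that remained.

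An RAR binds DNA as a heterodimer with an RXR, at a pair of hexamer half-sites called a retinoic acid response element (RARE). Without ligand the dimer holds corepressors such as NCOR1, which brings histone deacetylases to the gene. Ligand releases them and brings coactivators in their place. NRIP1 differs from NCOR1 in that it binds the receptor when ligand is present and dampens the response. RARB has long been known as a direct target of retinoic acid in many cell types, and its loss or silencing is common in tumors.

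The known RARE of RARB lies in the promoter that drives its shorter isoform, and the window is shown because RARB had the largest fold change of the 8 genes in each comparison with retinoic acid against its control. It is a direct repeat of half-sites with 5 bases between them. The window below was taken from RefSeq on GRCh38.p14, spans chr3:25428013-25428312 on the plus strand, and covers 250 bases before to 50 after the transcription start, with the repeat in capitals.
RARB promoter: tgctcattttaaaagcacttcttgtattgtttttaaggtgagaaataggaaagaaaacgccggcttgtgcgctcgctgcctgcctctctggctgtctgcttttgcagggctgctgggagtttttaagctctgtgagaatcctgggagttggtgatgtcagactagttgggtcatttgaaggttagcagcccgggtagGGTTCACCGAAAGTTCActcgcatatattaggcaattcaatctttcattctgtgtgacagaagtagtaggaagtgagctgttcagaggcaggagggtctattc

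The repeat itself reads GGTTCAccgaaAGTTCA, spacer in lower case, and runs from 53 to 37 bases before the start. Each promoter window of the 8 genes, 18 in all, was searched on both strands for direct repeats of half-sites in any combination with 1, 2 or 5 bases between them. The half-sites searched were AGGTCA, which is the consensus, and the variants spelled AGTTCA as at the end of the RARB repeat, GGTTCA as at its start, and GGGTCA as a further form. A repeat with a spacer of 5 was found in 1 window, that of RARB, and repeats with spacers of 1 or 2 were found in none. Among all 35116 windows of the RefSeq set, 0.0883% held a repeat with spacer 5, 0.131% one with spacer 1 and 0.0399% one with spacer 2. Half-sites without a partner at these spacings occurred elsewhere, 2 in one RARA window and 1 each in one window of NRIP1, RXRA and RXRG and in a pair of further RARB windows. A match to these letters is a description of the window and not a measured binding site.

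Levels are CPM, that is counts divided by a TMM-scaled library size and brought to a fixed total, within the culture series or within the tumor series, and ± marks the SD for levels and the SE for log2 fold changes. Total counts were 31607051 to 39422897 in the culture libraries, and 17266558 to 29078889 in the tumor libraries. A gene was called changed at a false discovery rate (FDR) under 0.05, from edgeR's quasi-likelihood test with Benjamini-Hochberg adjustment over all genes, together with more than a 2-fold difference. Summed neuroblastoma markers (10 genes, among them MYCN) lay at 2755 to 3762 CPM in cells, at 4263 to 4558 CPM in RA tumors and at 3237 to 4976 CPM in control tumors. The leukocyte list summed to 2.14 to 3.16 CPM in RA tumors and 2.59 to 4.40 CPM in control tumors, with its member TYROBP at 0 in every library. The endothelial list summed to 3.03 to 5.51 CPM in RA tumors and 2.75 to 8.41 CPM in control tumors, the Schwann list to 8.84 to 10.9 and 6.64 to 9.55 CPM, and the fibroblast list to 67.0 to 80.9 and 62.6 to 161.8 CPM in the same order. The highest fibroblast sum was that of control tumor 4. With DMSO in culture the fibroblast list summed to 142.8 to 147.3 CPM and the Schwann list to 25.4 to 28.6 CPM. At 6 days of ATRA they summed to 73.4 to 76.1 and 14.96 to 16.4 CPM. Cultured CHP-134 cells thus express genes of both lists, so these sums do not measure other cell types in the tumors. In culture the endothelial sum was 133.3 to 143.5 CPM at 6 days, nearly all of it CLDN5, while PECAM1 did not pass 0.182 CPM and TEK was at 0. In bulk RNA, fewer cells of a type and less RNA per cell cannot be told apart.

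In cultured cells, RARB, RARA, RXRG and NRIP1 rose in the course of ATRA and none of the 8 genes was called lower at any time. At 1 day 1 of the 8 genes was called higher, RARB, against 1.95% of all 20237 genes tested (0.791% were called lower and 2.74% in either direction). At 3 days 3 were called higher, RARB, RXRG and RARA, against 5.45% of all genes higher, 2.43% lower and 7.87% in either direction. At 6 days NRIP1 joined them, which made 4 of 8, against 18.8% of all genes higher, 12.3% lower and 31.2% in either direction. The median log2 fold change of the 8 genes was 0.31, 0.73 and 0.81 at 1, 3 and 6 days, against medians of 0.00, 0.01 and 0.04 over all genes. Without the 2-fold limit, 7, 8 and 8 of the 8 genes had an FDR under 0.05 at the 3 times. The share of all genes that did so was not counted, so these counts are a description. Over 11 alternatives, NCOR1 at 1 day was under 0.05 in 3 and RXRB at 3 days in 5.

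**Figure D1:**
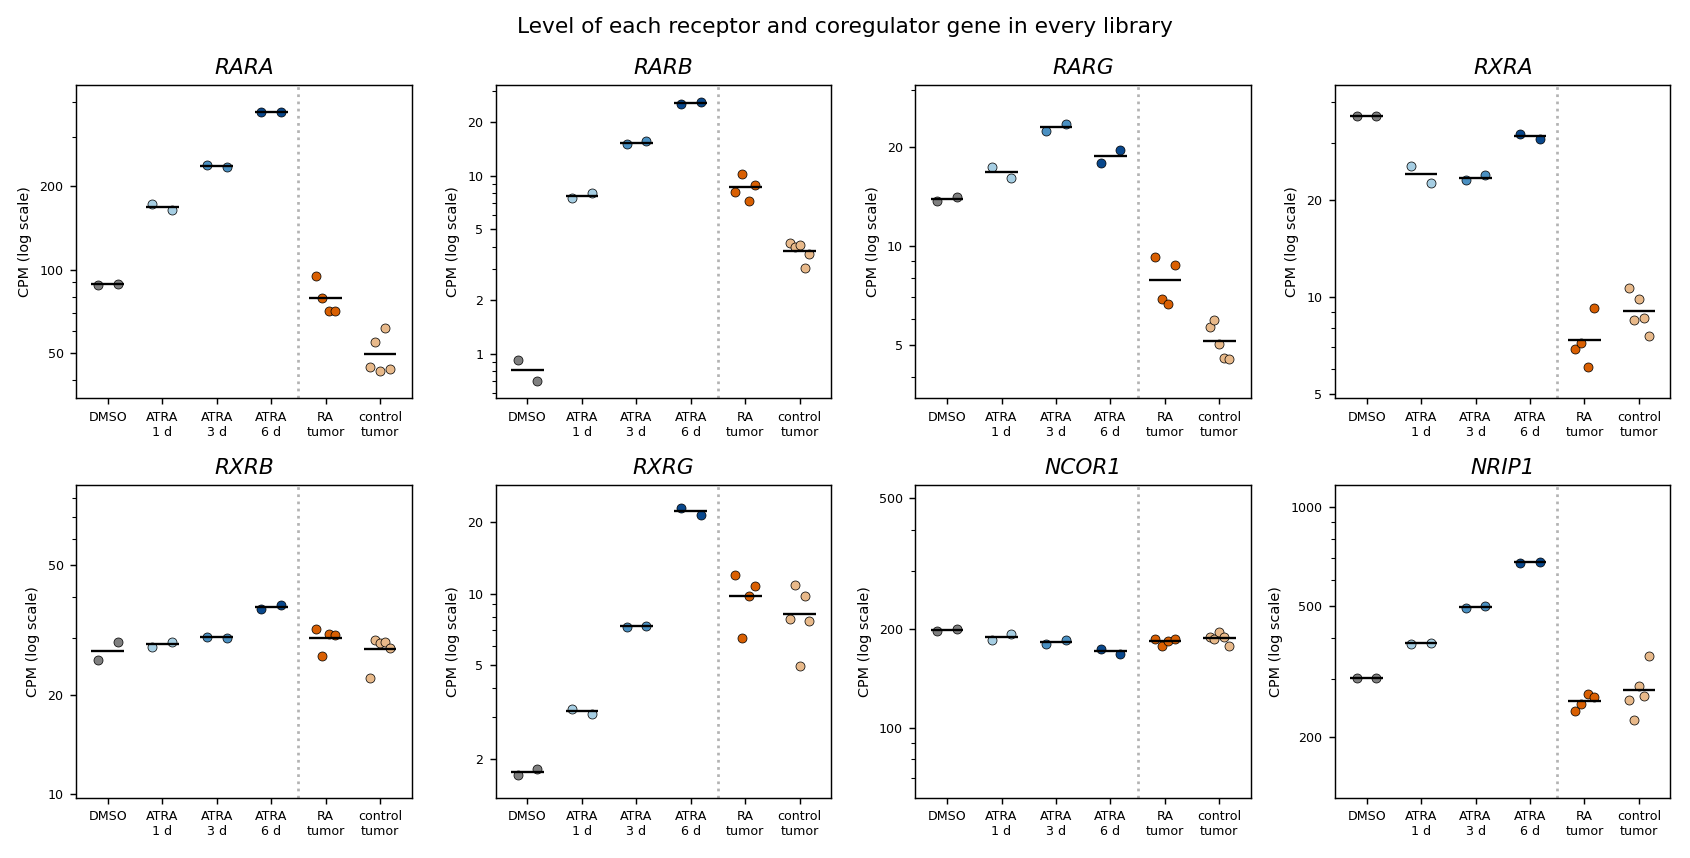
Level of each gene in every library, in CPM on a log axis, one panel per gene. Points are libraries, horizontal lines are group means, and the dotted line separates the culture series, in order of time in ATRA, from the tumors, which were scaled separately. RARA, RARB, RXRG and NRIP1 climb with time in culture, while in tumors only RARA, RARB and RARG have RA values that all lie above the control values.

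RARA encodes the RAR isotype that most cells express widely. It stood at 88.3 and 89.1 CPM with DMSO, 172 and 164 CPM at 1 day, 238 and 234 CPM at 3 days, and 367 and 368 CPM at 6 days of ATRA. The replicates of each time lay close together and no group overlapped the one before it. Against DMSO, the log2 fold change was 0.92 ± 0.03 at 1 day (FDR = 2.07e-25), just under the 2-fold limit, 1.41 ± 0.03 at 3 days (FDR = 5.19e-32) and 2.05 ± 0.03 at 6 days (FDR = 2.72e-38), a 4.14-fold rise. In the tumors RARA measured 95.1, 78.8, 71.2 and 71.2 CPM with RA, against 44.7, 54.9, 43.2, 61.9 and 43.9 CPM in controls. All 4 RA tumors lay above all 5 control tumors. The log2 difference was 0.67 ± 0.12 (FDR = 0.0167), which did not reach 2-fold and so was not called.

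RARB was the lowest of the 8 genes in untreated cells and the one with the largest fold change at each time. Its libraries held 0.923 and 0.704 CPM with DMSO, which rest on 36 and 24 counts, then 7.47 and 7.98 CPM at 1 day, 15.1 and 15.8 CPM at 3 days, and 25.5 and 26.02 CPM at 6 days. The first day accounted for most of the rise on the log scale. Log2 fold changes against DMSO were 3.23 ± 0.14 (FDR = 2.14e-20), 4.23 ± 0.13 (FDR = 5.82e-26) and 4.97 ± 0.12 (FDR = 4.3e-30), or 9.38-fold, 18.7-fold and 31.3-fold. In size of fold change RARB ranked 114 of the 20237 genes at 1 day and 354 at 6 days.

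RARB was also the one member called in the tumors. RA tumors held 8.16, 10.3, 7.25 and 8.84 CPM, against 4.17, 4.00, 4.10, 3.03 and 3.65 CPM in control tumors, from 137 to 265 and 56 to 80 counts. The groups did not overlap, and the lowest RA tumor lay well above the highest control. The log2 fold change was 1.19 ± 0.15 (FDR = 0.00194), or 2.28-fold. It was 1 of the 52 genes called higher in RA tumors, which are 0.246% of the 21098 tested (0.0379% were called lower and 0.284% in either direction). The call held when each of the 9 tumors was left out in turn.

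RARG, the isotype best known from skin and its appendages, moved least among the RARs. It measured 13.7 and 14.1 CPM with DMSO, 17.4 and 16.2 CPM at 1 day, 22.5 and 23.5 CPM at 3 days and 17.9 and 19.6 CPM at 6 days. The peak was at 3 days, where the log2 fold change against DMSO was 0.73 ± 0.07 (FDR = 2.58e-11), and the 6-day level was lower than that of 3 days by 0.29 ± 0.07 on the log2 scale (FDR = 0.000196). RA tumors held 9.23, 6.91, 6.64 and 8.77 CPM, against 5.66, 5.96, 5.02, 4.55 and 4.53 CPM in control tumors. These groups did not overlap either, at a log2 difference of 0.61 ± 0.15 (FDR = 0.0489). That FDR sits at the limit: it was under 0.05 in 4 of 15 alternative analyses, against 12 of 15 for RARA and 14 of 15 for RARB.

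The RXRs went different ways. RXRG, whose normal expression is largely in muscle and parts of the nervous system, had a low level with DMSO, at 1.72 and 1.82 CPM. It reached 3.26 and 3.11 CPM at 1 day, 7.24 and 7.31 CPM at 3 days and 23.1 and 21.5 CPM at 6 days. No group overlapped the one before it, and on the log2 scale the steps of RXRG grew with time, unlike those of RARB. The log2 fold changes against DMSO were 0.85 ± 0.14 (FDR = 1.07e-05), 2.04 ± 0.13 (FDR = 2.25e-16) and 3.65 ± 0.11 (FDR = 6.68e-27), the last a 12.6-fold rise.

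RXRG was not called in the tumors. RA tumors had 11.97, 6.52, 9.77 and 10.8 CPM, against 7.83, 10.9, 4.97, 9.80 and 7.63 CPM in control tumors. The ranges overlapped, and 3 of the 4 RA values lay inside the control range. The log2 difference was 0.24 ± 0.22 (FDR = 0.654), and this gene varied most between tumors of a group, with a coefficient of variation of 24.0% in RA tumors and 27.7% in control tumors.

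RXRA, the isotype that partners many nuclear receptors in most tissues, was the only RXR with lower levels under ATRA. It stood at 36.3 and 36.3 CPM with DMSO, 25.5 and 22.5 CPM at 1 day, 23.0 and 23.8 CPM at 3 days and 32.01 and 30.9 CPM at 6 days. All treated libraries lay below both DMSO libraries. The log2 difference from DMSO was -0.59 ± 0.06 at 1 day (FDR = 5.04e-11), -0.63 ± 0.06 at 3 days (FDR = 6.72e-12) and -0.21 ± 0.05 at 6 days (FDR = 0.000874), never past 2-fold. RA tumors held 6.91, 7.22, 6.08 and 9.21 CPM, against 10.6, 8.51, 9.82, 8.61 and 7.57 CPM in control tumors, with overlapping ranges and a log2 difference of -0.29 ± 0.14 (FDR = 0.354).

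RXRB, which is expressed in nearly every tissue, was not called at any time. It held 25.6 and 29.0 CPM with DMSO, 28.1 and 29.1 CPM at 1 day, 30.2 and 29.9 CPM at 3 days and 36.8 and 37.8 CPM at 6 days. The 6-day group stood above all earlier libraries, with a log2 fold change of 0.45 ± 0.05 (FDR = 2.24e-09), below 2-fold. RA tumors measured 31.99, 26.4, 30.7 and 30.7 CPM, against 22.6, 29.5, 28.9, 29.1 and 28.0 CPM in control tumors, and the log2 difference was 0.11 ± 0.09 (FDR = 0.605). RXRB overlaps SLC39A7 on the other strand, a zinc transporter gene whose counts were 149 to 159% of those of RXRB in RA tumors and 160 to 212% in control tumors.

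NCOR1, the scaffold of a histone deacetylase complex, was nearly level throughout. It measured 197 and 200 CPM with DMSO, 185 and 193 CPM at 1 day, 179 and 185 CPM at 3 days and 173 and 168 CPM at 6 days. The decline was small beside the other genes: the log2 difference from DMSO was -0.07 ± 0.03 at 1 day (FDR = 0.0479), -0.12 ± 0.03 at 3 days (FDR = 0.000209) and -0.22 ± 0.03 at 6 days (FDR = 2.82e-09). In tumors NCOR1 was at 187, 177, 183 and 186 CPM with RA and at 189, 187, 196, 189 and 177 CPM in controls, a log2 difference of -0.03 ± 0.06 (FDR = 0.815). It varied least of the 8 genes between tumors, by 2.46% of the mean in RA tumors and 3.61% in control tumors.

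NRIP1, itself inducible by retinoic acid in other cells and encoding a ligand-dependent brake on the receptors, was the most abundant corepressor gene here. Its libraries held 302 and 301 CPM with DMSO, 383 and 387 CPM at 1 day, 495 and 502 CPM at 3 days and 678 and 682 CPM at 6 days. Each time lay above the one before it. The log2 fold change was 0.35 ± 0.02 (FDR = 4.23e-16), 0.73 ± 0.02 (FDR = 2.99e-26) and 1.17 ± 0.02 (FDR = 7.19e-34), and it was called at 6 days alone. RA tumors had 240, 252, 271 and 265 CPM, against 258, 224, 285, 266 and 352 CPM in control tumors. The RA values fell inside the control range, with a log2 difference of -0.11 ± 0.10 (FDR = 0.67).

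**Figure D2:**
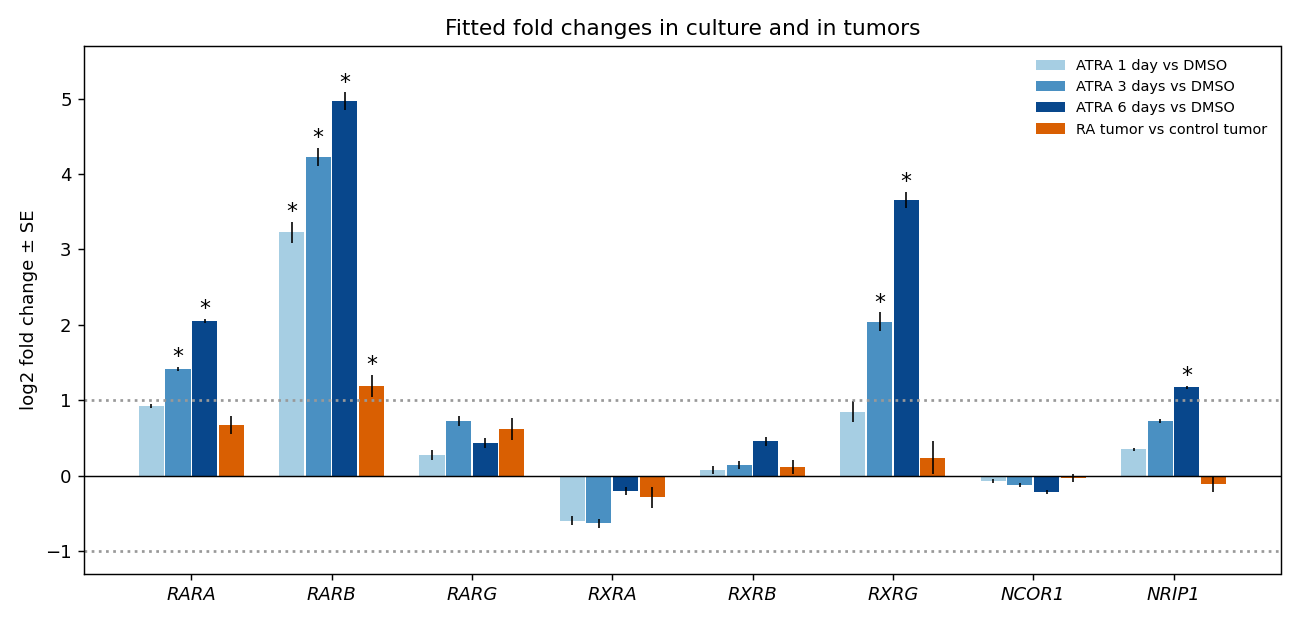
Log2 fold changes of the 8 genes (bars) with their SE (lines) at 1, 3 and 6 days of ATRA against DMSO and in RA tumors against control tumors. Asterisks mark calls, and dotted lines the 2-fold limit. RARB is past the limit in all 4 comparisons (3.23, 4.23, 4.97 and 1.19), while RXRG is at 3.65 after 6 days in culture and at 0.24 in tumors.

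The steps between successive times separate RARB from RXRG. Of the 8 genes, RXRG alone was called in either step: by 1.19 ± 0.11 from 1 to 3 days (FDR = 4.11e-11; 2.87% of all genes called higher, 1.22% lower and 4.09% in either direction) and by 1.61 ± 0.09 from 3 to 6 days (FDR = 1.47e-18; 12.7% higher, 8.41% lower and 21.1% in either direction). RARB moved by 1.00 ± 0.08 from 1 to 3 days (FDR = 1.9e-12), a 1.99-fold difference that sits on the limit and was called without 1-day replicate 2 (1.05) or 3-day replicate 1 (1.03). Its step from 3 to 6 days was 0.74 ± 0.07 (FDR = 2.16e-11). RARA moved by 0.49 ± 0.02 and 0.64 ± 0.02 in these steps (FDR = 3e-18 and 2.47e-23), and NRIP1 by 0.37 ± 0.02 and 0.45 ± 0.02 (FDR = 3.25e-17 and 9.22e-21). RXRA differed by -0.04 ± 0.06 from 1 to 3 days (FDR = 0.682), and was higher at 6 than at 3 days by 0.43 ± 0.06 (FDR = 3.86e-08).

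In tumors, an exact two-sided permutation test of mean log2 CPM (4 against 5) gave p = 0.0159 for RARA, RARB and RARG, the smallest value this test can give. The exact p was 0.0952 for RXRA, 0.254 for NCOR1, 0.302 for RXRB, 0.413 for RXRG and 0.524 for NRIP1. These 8 values are not adjusted. The 3 RAR genes therefore had higher levels in every RA tumor than in any control tumor, and the ranges of the 3 RXR and the corepressor genes overlapped. What share of all genes had tumor groups without overlap was not counted, so this only describes the 8 genes. Control tumor 4 had both the highest fibroblast sum and the highest neuroblastoma marker sum among controls (161.8 and 4976 CPM). It also had the highest RARA and the lowest RARB level among controls, and a link between these sums and the receptor levels was not tested. Without it, the log2 differences were 0.76 for RARA, 1.12 for RARB and 0.57 for RARG. In culture, 2 libraries against 2 cannot reach 0.05 in such an exact permutation test, whose smallest two-sided p is 0.333.

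Whether the difference with RA in tumors was smaller than in culture was tested as an interaction over all 17 libraries. Against the 1-day response, RARB alone of the 8 genes was called, at -2.02 ± 0.24 (FDR = 9.3e-05), where 0.306% of all 25787 genes were called lower, 0.252% higher and 0.558% in either direction. RARA, at 0.67 in tumors and 0.92 at 1 day, did not pass this test (-0.23 ± 0.17, FDR = 0.688). Against the 6-day response, 4 of the 8 genes were called lower in tumors, where 13.1% of all genes were (7.78% were called higher and 20.9% in either direction). They were RARB (-3.81 ± 0.23, FDR = 9.24e-11), RXRG (-3.44 ± 0.35, FDR = 2.91e-07), RARA (-1.41 ± 0.17, FDR = 3.92e-06) and NRIP1 (-1.31 ± 0.16, FDR = 2.67e-06). RARG did not pass this test (0.15 ± 0.18, FDR = 0.592). The drug isomer, its dose, its duration and the surroundings of the cells all differ between the series and cannot be told apart. The time between the last dose and collection may differ too, and its part was not tested.

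Without retinoic acid, tumors and cultured cells also differed in these genes. On a common scale over all 17 libraries, 2 of the 8 genes were called higher in control tumors than in DMSO cells (31.5% of all genes were) and 3 lower (11.4% of all genes; 42.9% in either direction), and the median log2 difference over all genes was 0.25. RARB measured 3.94, 3.79, 3.90, 2.85 and 3.46 CPM in control tumors, against 0.982 and 0.750 CPM with DMSO, a log2 difference of 2.04 ± 0.19 (FDR = 1.01e-08). RXRG had 7.40, 10.3, 4.72, 9.22 and 7.23 CPM in control tumors, against 1.83 and 1.94 CPM, or 2.05 ± 0.27 (FDR = 2.81e-06). Both genes thus stood higher in control tumors than in DMSO cells.

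The genes called lower in control tumors were RXRA, RARG and RARA. RXRA had 10.04, 8.06, 9.34, 8.10 and 7.17 CPM in control tumors, against 38.6 and 38.6 CPM with DMSO, a log2 difference of -2.18 ± 0.12 (FDR = 3.02e-12). RARG had 5.35, 5.64, 4.77, 4.28 and 4.29 CPM, against 14.6 and 15.0 CPM with DMSO, or -1.60 ± 0.13 (FDR = 7.07e-10). RARA was at the 2-fold limit, with 42.2, 52.0, 41.1, 58.1 and 41.6 CPM against 94.0 and 94.9 CPM with DMSO (-1.01 ± 0.12, FDR = 6.9e-07). Its call was lost without DMSO replicate 2 (-0.99) and without control tumor 1 (-0.97), 3 (-0.96) or 5 (-0.95). Library kit, sequenced depth and mouse tissue differ along with this contrast and cannot be told apart from it.

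Genes on the opposite strand also differed between the series. RARA-AS1, a long noncoding RNA gene at chr17:40340867-40343136 on the minus strand within RARA (plus strand), had 1.23 and 1.38 CPM with DMSO, 6.38 and 6.01 CPM at 1 day, 10.3 and 11.1 CPM at 3 days and 28.5 and 29.2 CPM at 6 days. It was called higher at each time, by 2.25 ± 0.13, 3.04 ± 0.12 and 4.47 ± 0.10 on the log2 scale (FDR = 1.44e-16, 5.03e-22 and 4.96e-30). Its counts as a share of those of RARA were 1.39 to 1.55% with DMSO, 3.66 to 3.72% at 1 day, 4.34 to 4.75% at 3 days and 7.75 to 7.94% at 6 days. These fold changes are larger than those of RARA at the same times, a difference that was not tested.

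A second gene opposite RARA, ENSG00000278918, had 1 to 4 counts in each culture library, where RARA had 3038 to 12512. In tumors it had 142 to 170 counts with RA and 71.4 to 105 in controls, or 7.56 to 9.58% and 6.80 to 10.5% of the RARA counts. A gene opposite NRIP1, ENSG00000279390, had 0 to 4 counts in culture libraries, against 8.12 to 10.7% of the NRIP1 counts in RA tumors and 8.59 to 11.8% in control tumors. The strand setting of the authors' counting is not given in the sources used here, so in the tumor libraries reads from a gene and from its antisense partner cannot be told apart, and RARA-AS1 (6.20, 6.95, 5.47 and 5.64 CPM in RA tumors, against 3.09, 2.503, 3.24, 4.01 and 3.59 CPM in control tumors) is uncertain there. The part of this difference in the contrast between control tumors and DMSO cells was not tested. The shares overlapped between RA and control tumors.

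Levels can be compared between genes only per length of transcript, here CPM per kb of the MANE Select transcript. With DMSO the order was NRIP1 (38.9 ± 0.08 CPM per kb, SD, n = 2), RARA (27.1 ± 0.17), NCOR1 (18.5 ± 0.19), RXRB (9.46 ± 0.85), RXRA (6.55 ± 0.00066), RARG (4.76 ± 0.099), RXRG (0.899 ± 0.036) and RARB (0.26 ± 0.05), with no overlap between neighbours. At 1 day RARA (51.3 ± 1.6) had passed NRIP1 (49.7 ± 0.33), and it led at 3 days (72.03 ± 0.95) and 6 days (112 ± 0.15). RARB passed RXRG at 1 day and RXRA at 3 days, and at 6 days it stood sixth of 8 at 8.23 ± 0.11, below RXRG at 11.3 ± 0.56. RXRA was last at 6 days, at 5.68 ± 0.14.

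In RA tumors the order was NRIP1 (33.2 ± 1.8, n = 4), RARA (24.2 ± 3.4), NCOR1 (17.1 ± 0.42), RXRB (10.4 ± 0.85), RXRG (4.97 ± 1.2), RARB (2.76 ± 0.41), RARG (2.704 ± 0.45) and RXRA (1.33 ± 0.24), and only RARB and RARG overlapped as neighbours. In control tumors NCOR1 (17.5 ± 0.63, n = 5) stood before RARA (15.2 ± 2.5) with overlapping ranges, RARG (1.76 ± 0.22) and RXRA (1.63 ± 0.22) overlapped as well, and RARB was last (1.21 ± 0.15). RARB therefore passed RARG and RXRA in mean level between the groups of tumors.

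**Figure D3:**
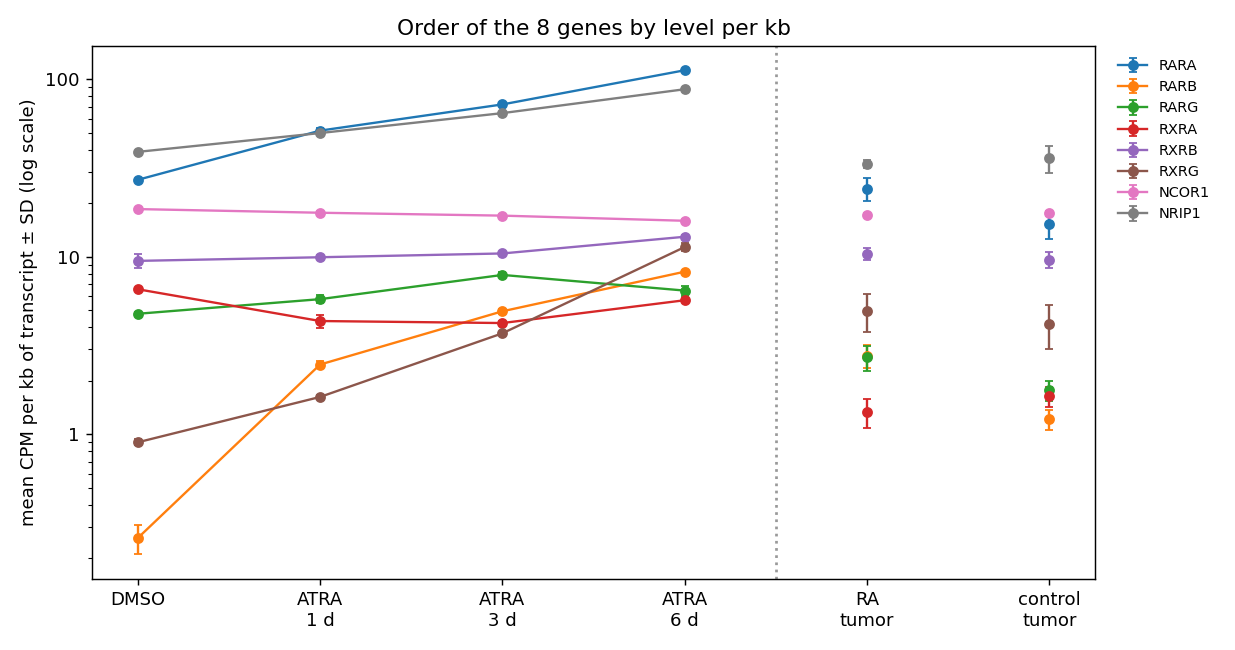
Mean level of each gene per kb of transcript, in CPM per kb on a log axis, with the SD over libraries. Lines join the culture groups in order of time, and the tumors stand right of the dotted line. RARB climbs from 0.26 to 8.23 CPM per kb across the ATRA course, and at 6 days it stands above RARG and RXRA but below RXRG. RXRA is the lowest gene at 6 days and in RA tumors.

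Summed per kb, the 3 RARs and the 3 RXRs followed different courses. The RAR sum was 32.1 ± 0.22 CPM per kb with DMSO and 59.5 ± 1.8, 84.8 ± 0.54 and 126.9 ± 0.69 at 1, 3 and 6 days, while the RXR sum was 16.9 ± 0.88, 15.9 ± 0.18, 18.3 ± 0.086 and 29.9 ± 0.45. In tumors the RAR sum was 29.6 ± 3.7 with RA and 18.2 ± 2.4 in controls, and the RXR sum 16.7 ± 2.1 with RA and 15.4 ± 1.5 in controls. The RAR sum was above the RXR sum in every group, and the gap was widest at 6 days. These sums and the shares below carry no test, since they are scores over the genes.

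RARA made up most of the RAR level throughout: 84.4, 86.2, 84.9 and 88.4% at DMSO, 1, 3 and 6 days, 81.5% in RA tumors and 83.4% in control tumors. RARB made up 0.81% with DMSO, 4.15, 5.80 and 6.48% at 1, 3 and 6 days, 9.39 ± 1.6% in RA tumors and 6.81 ± 1.4% in control tumors. RARG made up 14.8% with DMSO and 5.07% at 6 days. Within the RXRs, RXRG made up 5.32% with DMSO and 10.2, 20.2 and 37.8% at 1, 3 and 6 days, while RXRA held 38.8, 27.3, 23.0 and 18.97%. In tumors RXRG made up 29.5 ± 3.8% with RA and 26.9 ± 5.6% in controls, and RXRA 8.04 ± 1.6% and 10.7 ± 2.3%. RXRB was the leading RXR in every group, from 43.2% at 6 days to 62.5% in RA tumors. Without division by length RXRA led with DMSO, at 55.55% against 41.7% for RXRB.

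**Figure D4:**
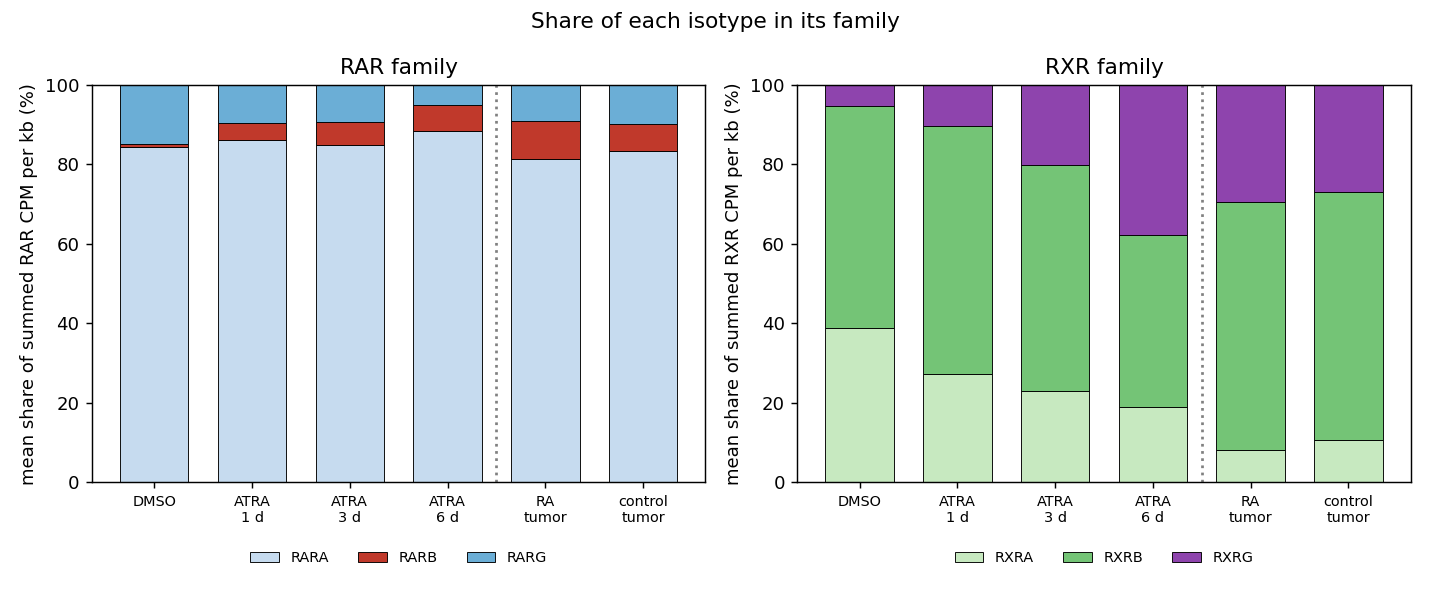
Mean share of each isotype in the summed RAR (left) and RXR (right) level, from CPM per kb, by group. The RARs stay mostly RARA, between 81.5 and 88.4%, while RXRG widens from 5.32 to 37.8% of the RXRs during ATRA and holds 29.5 and 26.9% in RA and control tumors.

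The other genes of the receptor complexes were described as 4 lists, each with 1 gene called at 6 days, where 31.2% of all genes were called in either direction and 18.8% higher. Of 9 genes of the NCOR corepressor complex, which holds deacetylases and their adaptors, none was called at 1 or 3 days. Of all genes, 2.74 and 7.87% were called in either direction at these times. The median of this list at 6 days was -0.37, against 0.04 over all genes. Of 10 coactivators, NCOA3, a p160 coactivator, was called at 6 days alone (1.37 ± 0.03). Of 11 ligand-dependent corepressors and orphan receptors that compete for the same half-sites, NR2F1 (COUP-TFI) was called at 6 days alone (1.70 ± 0.07). Of 13 partner receptors of RXR, 9 passed the filter and PPARA, a sensor of fatty acids, was called at 6 days (1.12 ± 0.07). That last count of 1 was 2 without either DMSO replicate and 3 without 6-day replicate 1. In tumors none of these 4 lists had a called gene, where only 0.284% of all genes were called in either direction.

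Of 15 symbols listed for known RAR target genes, 14 were found among the genes measured, and 8 passed the filter in cells. Called higher at 1, 3 and 6 days were 6, 7 and 7 of them, where 1.95, 5.45 and 18.8% of all genes were called higher. Among them were DHRS3, which encodes a retinaldehyde reductase (4.23 ± 0.83, 5.77 ± 0.67 and 6.51 ± 0.60), CYP26B1, an enzyme that degrades retinoic acid (1.56 ± 0.25, 4.14 ± 0.17 and 6.48 ± 0.13), and RET, a receptor tyrosine kinase of neural crest cells (2.36 ± 0.16, 1.90 ± 0.18 and 5.00 ± 0.13). RARRES2 was called lower at 6 days (-2.81 ± 0.23). In tumors 9 passed the filter and 1 was called higher, where 0.246% of all genes were. The median of the list was 1.39, 1.89 and 4.13 at the 3 times and 0.60 in tumors, against medians of at most 0.04 over all genes.

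The genes nearest to each of the 8 in their 4 fold changes (ATRA at 1, 3 and 6 days and RA tumors, as a Euclidean distance on the log2 scale over 13470 protein-coding genes tested in both series) are a description without a test. RARA was nearest to NAV1 (distance 0.167), SEC16B and EVC, and RARB to RAB20 (1.07) and C1orf87. The nearest gene to RARB lay farther from it than that of any other of the 8 genes. RXRG was nearest to SGIP1 (0.354), STRC and ABTB1, RARG to BEND5 (0.199), GMPPA and TAS2R43, and RXRA to RNF112 (0.175), ERMP1 and VSIG10L. NRIP1 was nearest to INSM1 (0.135), GTF2IRD2 and BAZ2B, RXRB to AVL9 (0.0352), DMXL1 and B4GALNT4, and NCOR1 to MRPS22 (0.0151), CUTA and KAT8.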

How the data were processed

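RNA-seq libraries of CHP-134 cells (Illumina Stranded Total RNA with Ribo-Zero Plus) and tumors (KAPA RNA HyperPrep with RiboErase) were analysed from expected counts per gene. Per the submitters' processing notes, the expected counts the authors deposited came from RSEM 1.3.3, after Trim Galore 0.4.4 and alignment with STAR 2.7.10a (hg38). These are not normalized, and fractions occur in 7.55% of the culture and 14.7% of the tumor values. A step that removes mouse reads is not given in the sources used here. Expected counts were rounded. Culture (8 libraries), tumors (9) and all 17 were fitted separately with edgeR 4.0.16 (R 4.3.3): filterByExpr with a minimum count of 10, TMM, robust quasi-likelihood test, 1 mean per group. A gene was called at FDR under 0.05 and over 2-fold; the SE is the log2 fold change over the square root of F. The script was tested on simulated data. Alternatives were DESeq2 1.42.0, other scalings, no filter, other fits, a replicate block and leaving out each library. Lengths came from GENCODE MANE Select transcripts and promoters from RefSeq (all 8 genes matched). The study calls the culture replicates independent but does not say how they were separated. Their p-values measure the spread between these libraries. The members and lists were chosen with earlier results of these data known. The text names all 8 members, at most 4 called genes per list and comparison in order of size, and the 3 nearest protein-coding genes of each member, except that some genes the rule names are not reported here; ENSG00000278918, ENSG00000279390, RARA-AS1, SLC39A7 and the marker genes were named in addition, after their values were seen.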

Additional observations from a re-analysis of the deposited data

Results flagged for a closer look

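Among the control tumors, replicate 1 lay apart in RXRB, at 22.64 CPM where the other controls held 28.0 to 29.5 CPM. The gap passes Dixon's 95% limit, which chance alone passes in about 1 of 20 groups. Each of the 8 genes was screened in RA and in control tumors, and this was the only gap flagged.

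The difference with RA in tumors minus that of ATRA in culture passed the test of the difference itself in 6 cases. For RARB it was -2.02 against the 1-day response and -3.807 against the 6-day response. Against the 6-day response it was -3.444 for RXRG, -1.413 for RARA, -1.31 for NRIP1 and -0.3688 for RXRB. The RXRB value is under 2-fold, and its FDR ranged from 0.00378 to 0.218 over 18 alternatives.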

How the results depend on the processing

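Over the alternatives, the 8 genes kept their direction except where a difference was near 0: RXRB at 1 day was -0.023 without DMSO replicate 1, RXRA from 1 to 3 days 0.052 without 1-day replicate 1 (range -0.12 to 0.052), and RXRB in tumors minus the 1-day response -0.030 without DMSO replicate 2. Upper-quartile factors moved the median of all genes by 0.16 at 6 days, by 0.15 from 3 to 6 days and by 0.27 between control tumors and DMSO, and there NCOR1 from 3 to 6 days became 0.049 and RXRB and NCOR1 in control tumors against DMSO 0.12 and 0.018. RARA in control tumors against DMSO was not called with DESeq2 (-0.96), RLE factors (-0.96) or upper-quartile factors (-0.73). From 1 to 3 days, 2 of the 8 genes were called with upper-quartile factors (RARB 1.02) or with only the groups compared (RARB 1.00), and 1 to 2 when a library was left out. At 6 days, 2 RXR partner receptors were called without the filter or with only the groups compared, and 2 coactivators with upper-quartile factors, where 1 was called in each list.

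Replicate numbers did not pair the libraries: deviations of same-numbered libraries correlated by -0.025 to 0.012 in cells and -0.334 to 0.108 in tumors. With the replicate block, 12 genes and 0 of the 8 were called in tumors, RARB at 1.17 (FDR = 0.0608, range over its 15 alternatives 5.93e-10 to 0.0608). No paired analysis was possible between control tumors and DMSO because they share no culture or animal.

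Counts of called genes moved most in tumors: 60 in the main analysis, 122 with DESeq2, 124 without the filter, 157 with all 17 libraries in one fit, and 24 to 160 when a tumor was left out. At 1 day 554 became 333 with DESeq2 and 237 with all 17 libraries, from 1 to 3 days 827 became 546 and 425, and for tumors minus the 1-day response 144 became 217 with DESeq2 and 66 to 198 with a library left out. Without division by length, RARA made up 85.8, 87.3, 86.0 and 89.2% of the RARs at DMSO, 1, 3 and 6 days, RARB 6.25% at 6 days, and RXRG 2.71, 5.71, 11.98 and 24.5% of the RXRs in that order, 20.5% in RA tumors and 18.2% in control tumors. With 24 counts in 1 DMSO library, counting error limits the fold of RARB.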
